A study of Mus musculus with 16 samples.

Results

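The genes of the proteasome, the multisubunit protease that degrades ubiquitin-tagged proteins, were followed in mouse liver. They were chosen by name: every entry of the deposited table whose symbol is Psma, Psmb, Psmc or Psmd followed by a number, apart from the immunoproteasome genes Psmb8, Psmb9 and Psmb10. This gave 36 genes of 24010 entries, and 35 of them were among the 10677 genes that were tested. The libraries came from C57BL/6 mice that had been given an enhanced episomal vector (EEV) plasmid by hydrodynamic injection into the tail vein, and livers were taken 5 weeks after it. Old mice were 23 months of age and young mice 5 months, and the plasmid coded for human MANF (an endoplasmic reticulum resident and secreted protein) or was an empty control. The 4 groups were old MANF, old control, young MANF and young control, with 4 animals and 4 libraries each. All animals, controls included, had thus undergone the injection and carried a plasmid. No group without injection was analysed here, and the sex of the mice is not in the labels.

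The 26S proteasome consists of a barrel-shaped 20S core, which cuts proteins, and 19S caps, which receive and unfold them. The core has outer rings of alpha subunits that gate the entrance and inner rings of beta subunits, of which PSMB5, PSMB6 and PSMB7 hold the chymotrypsin-like, caspase-like and trypsin-like active sites. Each cap holds a ring of PSMC ATPases and a set of PSMD subunits that bind ubiquitin, remove it and form the scaffold. In interferon-stimulated and immune cells the active subunits are exchanged for PSMB8, PSMB9 and PSMB10, which gives the immunoproteasome. The transcription factor NFE2L1 (NRF1) raises proteasome genes together when proteasome activity falls, through antioxidant response elements in their promoters, and hepatocytes depend on it.

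Promoters are shown because the members are known as a jointly regulated set. RefSeq promoter sequences (build GRCm38.p6, 250 bases before to 50 bases after the start of transcription) were found for 29 of the 36 genes, with 31 promoters. The core of the antioxidant response element, TGACNNNGC, was searched on both strands and lay in 5 of the 31 promoters (16.1%), against 12.4% of all 32851 promoters. The CCAAT box, also on both strands, lay in 12 of the 31 (38.7%), against 37.4% of all promoters. No member promoter held both motifs. In Psmd14, CCAAT matches on opposite strands overlapped. The shares were thus near those of all promoters, and a match is a description of letters and not of a bound site. The genes of the catalytic subunits Psmb5 and Psmb6 each held the element, in capitals here, on the strand of the gene, and their whole windows lie at chr14:54617946-54618245 (minus strand) and chr11:70525107-70525406 (plus strand).
Psmb5: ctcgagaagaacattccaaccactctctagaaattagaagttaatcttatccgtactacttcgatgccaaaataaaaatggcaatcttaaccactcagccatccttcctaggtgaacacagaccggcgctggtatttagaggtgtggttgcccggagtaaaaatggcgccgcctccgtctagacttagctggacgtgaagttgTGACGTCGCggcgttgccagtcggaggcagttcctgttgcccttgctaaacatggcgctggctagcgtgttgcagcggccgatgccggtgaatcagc
Psmb6: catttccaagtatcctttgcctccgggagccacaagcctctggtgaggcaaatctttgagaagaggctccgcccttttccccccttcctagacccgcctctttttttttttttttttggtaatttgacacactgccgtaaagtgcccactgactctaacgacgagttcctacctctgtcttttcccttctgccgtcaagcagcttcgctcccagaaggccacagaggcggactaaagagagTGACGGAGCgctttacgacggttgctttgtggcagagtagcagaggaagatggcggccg

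The other members with the element were Psmc6, Psmd12 and Psmd9, given with up to 15 bases on either side and the element in capitals. It is read on the opposite strand in Psmc6 (chr14:45329582-45329620) and Psmd12 (chr11:107479278-107479304), and on the strand of the gene in Psmd9 (chr5:123228144-123228182), all 3 genes lying on the plus strand. Of the CCAAT boxes, in capitals, those of Psmb3 (chr11:97703376-97703410) and Psmc2 (chr5:21785232-21785266) are shown, both on the plus strand, since both genes come up again among the comparisons of MANF with control.
Psmc6: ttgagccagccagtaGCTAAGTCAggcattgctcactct
Psmd12: tctGCTGTGTCAcatttgcccccctca
Psmd9: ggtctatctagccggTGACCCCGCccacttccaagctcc
Psmb3: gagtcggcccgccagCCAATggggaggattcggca
Psmc2: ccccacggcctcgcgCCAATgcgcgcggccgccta

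The deposited values were RPKM, reads per kilobase of gene length and relative to the size of the library. The reads divided by numbered 18.31 to 26.12 M (megareads) per library, and the counts behind the member genes other than Psma8 and Psmb11 were 133 to 3598 reads per library. Alb, the gene of the main secreted protein of hepatocytes, stood at 20090.8 to 34329.0 RPKM in the 16 libraries. Manf had 17.4, 11.2, 17.8 and 11.5 RPKM in old MANF livers, against 5.99, 5.95, 6.87 and 8.26 RPKM in old control livers, which do not overlap. It had 13.8, 7.53, 12.1 and 12.3 RPKM in young MANF livers, against 14.4, 8.64, 8.95 and 8.57 RPKM in young control livers, which do overlap. Neither difference passed limma's test (adjusted p = 0.0746 and 0.705). The table lists the mouse gene, and how reads from the human sequence of the plasmid were counted is not given in the sources used here. Before the comparisons, some libraries need naming. Young control replicate 1 and old control replicate 4 had proteasome genes that stood above the rest of their groups. In young MANF replicate 3 the values rose with the GC content of the genes, and in young MANF replicate 4 they fell with it. Old control replicate 4 also had the highest summed RPKM of the 9 Kupffer cell markers (651.2 against 118.1 to 178.4 in the other old control livers). Young control replicate 1 had the lowest Kupffer cell sum of its group (58.3 RPKM).

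Of the 36 genes, 34 were read at more than 1 RPKM in the mean of the 16 libraries, and the core genes stood at higher medians than the non-ATPase genes of the cap. RPKM is per length, so the levels of genes can be set side by side, but the order depends on the length used for each gene. The lengths behind the values ran from 871 bases for Psmb5 to 7265 for Psmd1, with 3421 for Psmb7 and 7248 for Psmd9. Whether they match the transcripts made in liver was not tested. The alpha subunit genes Psma1 to Psma7 had means of 20.5 RPKM (Psma7) to 65.3 RPKM (Psma2). The beta subunit genes Psmb1 to Psmb7 ranged from 23.7 RPKM (Psmb3) to 81.0 RPKM (Psmb1, the highest of the members). The ATPase genes had a median of 31.5 RPKM, between 11.7 RPKM for Psmc2 and 50.0 RPKM for Psmc1. The 11 genes of non-ATPase cap subunits were lower, with a median of 17.5 RPKM between 9.22 RPKM for Psmd1, a large scaffold subunit, and 31.4 RPKM for Psmd2, the other large scaffold subunit. Lowest were the chaperones that assemble the cap base and are not part of the finished protease, with 3.51 RPKM for Psmd5, 4.43 RPKM for Psmd9 and 5.66 RPKM for Psmd10 (gankyrin).

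The 3 catalytic genes kept nearly the same order of level in each liver. Psmb6 averaged 39.1 RPKM over all libraries, Psmb5 32.7 RPKM and Psmb7 27.8 RPKM. Within a library, Psmb6 lay above Psmb7 in 16 of 16 livers and above Psmb5 in 15, and Psmb5 lay above Psmb7 in 15. Over all libraries the ranges overlapped, with 25.0 to 47.5 RPKM for Psmb5 and 24.8 to 35.1 RPKM for Psmb7. Psmb5 (chr14, 54614119 to 54618022, minus strand) and Psmb6 (chr11, 70525367 to 70527858, plus strand) lie apart in the genome, and in all the members are spread over 16 chromosomes in GENCODE M21 (GRCm38). Exons of 2 members are overlapped by a gene on the same strand (Psmb5 by Mir686, Psmd1 by Gm21972) and those of 8 by a gene on the opposite strand. The library kit was stranded, but whether the counting used the strand is not given in the sources used here.

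**Figure D1:**
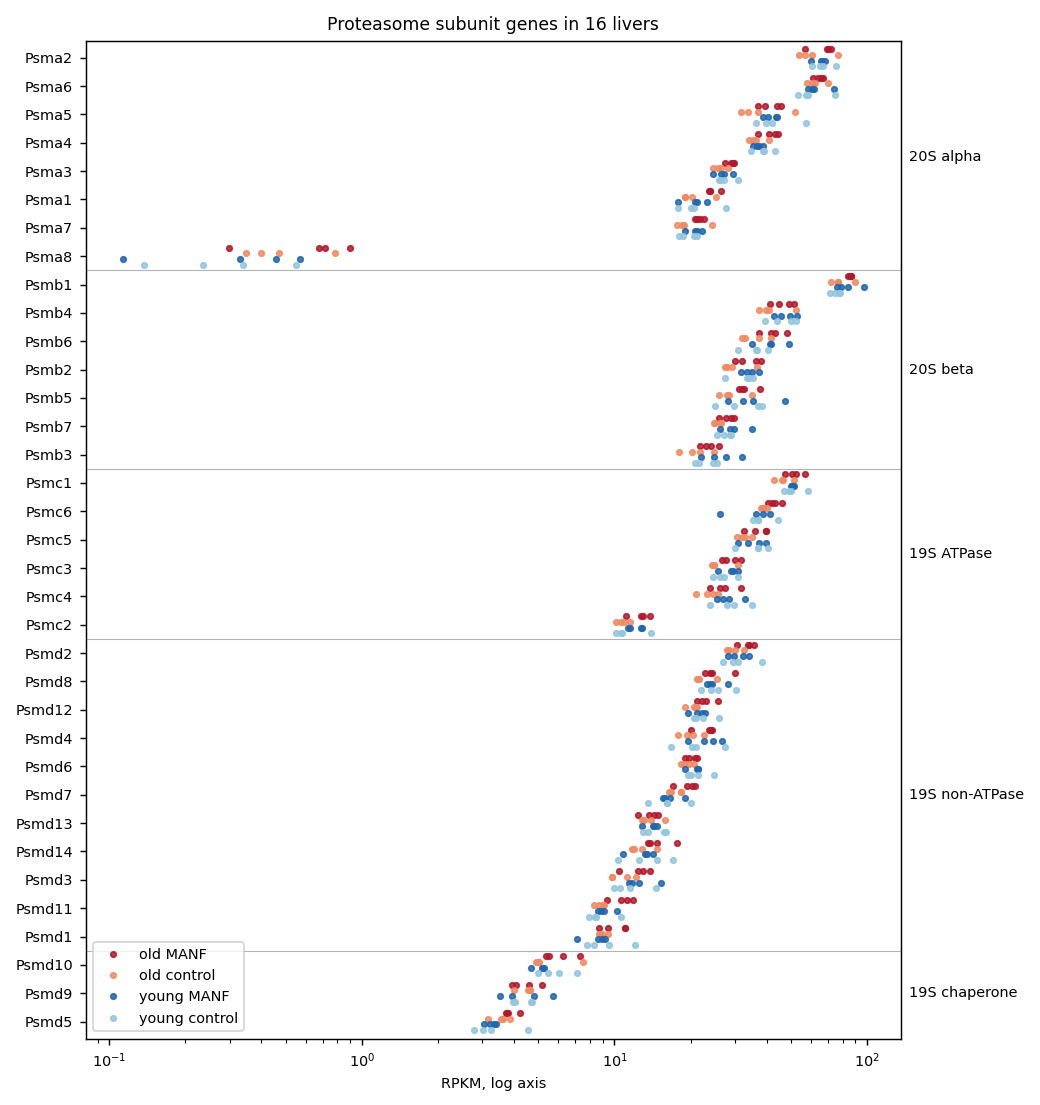
RPKM on a log axis of the 35 tested proteasome genes in 16 livers, 1 point per library, ordered by layer of the complex and by mean level. Psmb1 lies highest (71.3 to 97.2 RPKM), the 3 assembly chaperones lie at 2.79 to 7.50 RPKM, and Psma8 stays under 1 RPKM.

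The members with a tissue-restricted role were near or at 0. Psmb11, the thymus-specific beta subunit, was listed at 0 in all 16 libraries and was not tested. Psma8, the testis counterpart of Psma7, had 0.298, 0.896, 0.677 and 0.715 RPKM in old MANF livers, 0.779, 0.397, 0.471 and 0.347 RPKM in old control livers, 0.113, 0.329, 0.458 and 0.569 RPKM in young MANF livers and 0.338, 0.547, 0.137 and 0.235 RPKM in young control livers. These values rest on 5 to 31 reads per library. The gene reached the filter of 0.5 RPKM in 6 libraries, 3 of them old MANF, and without old MANF livers it would have reached the filter in 3, under the 4 required. It was thus tested only through the group in which it was highest, and its differences are descriptions only. Psma8 and Psma7 are close in sequence, and how reads that fit both were assigned is not stated.

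Individual livers differed in their proteasome genes as a set. Young control replicate 1 lay above the mean of its group for 35 of 35 genes and was the highest of the group for 27 of them, with a median deviation of 0.20 on the log2 scale. Young control replicate 3 lay below the mean for 35 genes and was the lowest for 29, with a median deviation of -0.17. Old control replicate 4 was above its group mean for 33 genes (median deviation 0.17), and old MANF replicate 4 was above it for 3 (median deviation -0.12). The medians over all tested genes moved the same way in these libraries but less, at 0.08, -0.07, 0.10 and -0.04 in the same order. As a share of all listed RPKM, the members took 0.323 to 0.440%, the highest in young control replicate 1.

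Most members varied little between animals of a group. The median SD within groups was 0.154 on the log2 scale for the 35 genes, against 0.193 for all tested genes and 0.550 for Psmb8, Psmb9 and Psmb10 (0.275 without old control replicate 4). Among members, Psma3 and Psmc1 were the steadiest (SD 0.09 and 0.10), and Psma8 and Psmb5 the least steady (SD 0.32 and 0.24). The summed RPKM of the 36 genes averaged 1005.7 ± 58.1 in old MANF livers, 908.1 ± 86.2 in old control livers, 976.2 ± 61.8 in young MANF livers and 957.3 ± 105.4 in young control livers (SD, n = 4 each). These ranges overlap between all groups. In a piece of tissue, fewer cells of a type and less RNA per cell cannot be told apart.

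**Figure D2:**
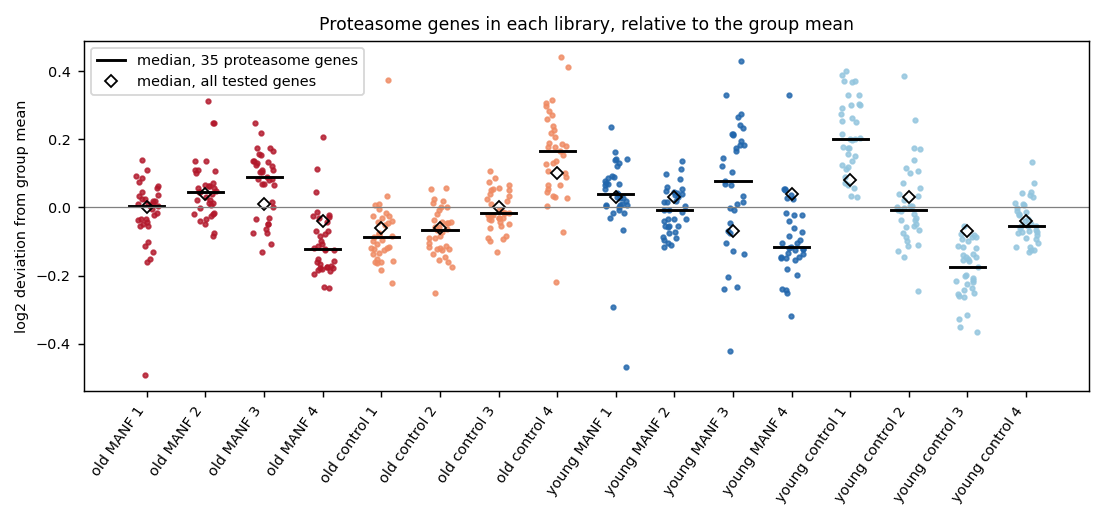
Deviation of each of the 35 tested proteasome genes from its group mean (log2 of RPKM + 0.5), by library, with the median of the members as a bar and the median of all tested genes as a diamond. Young control replicate 1 and old control replicate 4 lie above the other libraries of their groups (bars at 0.20 and 0.17), and young control replicate 3 lies below (bar at -0.17).

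In some libraries the members fanned out by base composition. In young MANF replicate 3 the deviation of a gene from its group mean went with the GC content of its longest coding transcript, with a Spearman's rho of 0.69 over the 35 members and of 0.62 over 10253 tested genes with a GC value. In young MANF replicate 4 the rho was -0.77 over the members and -0.47 over all these genes. In the other libraries the rho with GC content over the members lay between -0.48 (old control replicate 1) and 0.48 (young control replicate 2). The deviations also went with the gene length behind the RPKM. Over all tested genes that rho was -0.43 in young MANF replicate 3 and 0.43 in replicate 4, and over the members -0.25 and 0.16. The parts of GC content and length were not separated. These are descriptions across genes that share their libraries and are no independent replicates. Deviations from a group mean cancel out over the group, so the slopes of livers of 1 group are not independent of each other. Psmc6, with 37.0% GC, had 26.1 RPKM in young MANF replicate 3, while the 3 remaining livers of the group had 36.4 to 41.4 RPKM. Psmb5, with 56.6% GC, had 47.5 RPKM in that liver, while the remaining 3 had 28.1 to 35.3 RPKM. Without young MANF replicate 3, the median difference of the members between young MANF and young control livers was -0.01, as with it.

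**Figure D3:**
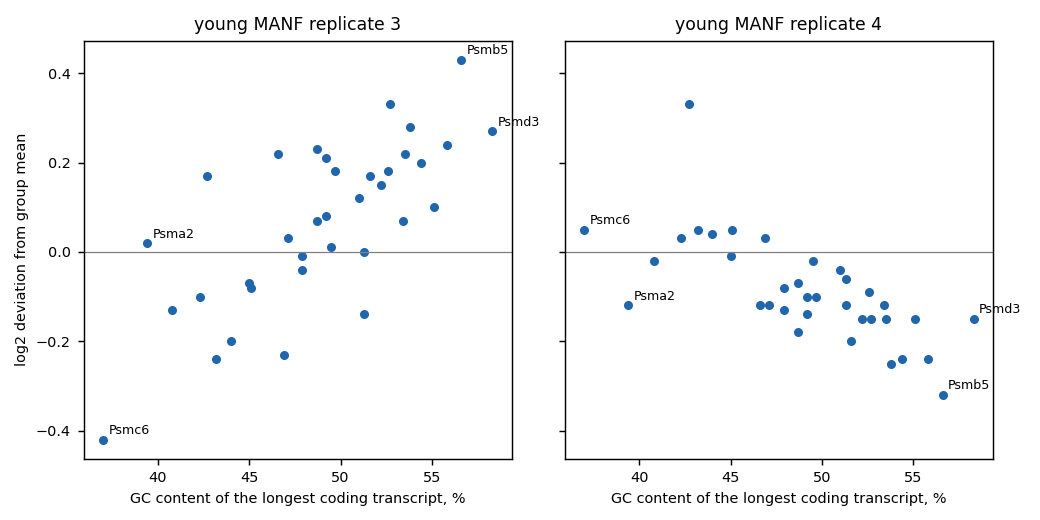
Deviation of proteasome genes from the young MANF group mean (log2 of RPKM + 0.5) against GC content, 1 point per gene, in young MANF replicates 3 and 4. The points slope upward in replicate 3 (rho 0.69), where Psmc6 lies lowest and Psmb5 highest. They slope downward in replicate 4 (rho -0.77), where Psmb5 lies lowest and Psma8 highest.

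The comparison of old MANF with old control livers asks what the MANF plasmid does in aged liver. Most proteasome genes were slightly higher on average in old MANF livers: 33 of 35 differences were above 0, with a median log2 difference of 0.15. Over all tested genes the median was 0.03, with 6314 of 10677 above 0. Psma8, tested only through its old MANF values, is 1 of the 33 (log2 difference 0.19). None of the 35 passed limma's test at an adjusted p of 0.05, where 0.103% of all tested genes did. Psmd9 and Psmd13 were the exceptions in sign, each at -0.01. By layer of the complex, the medians were 0.14 for the alpha (Psma8 included), 0.17 for the beta, 0.16 for the ATPase and 0.17 for the non-ATPase genes. At an unadjusted limma p under 0.05 there were 2 members and 1036 of all tested genes, and limma's voom method on the recovered reads also called 0 members. Marker lists of cell types moved in both directions in the same comparison without passing. Of 6 tested T and NK cell markers 1 was above 0 (median -0.57), of 9 Kupffer cell markers 1 (median -0.13) and of 8 sinusoidal endothelium markers 2 (median -0.16). Of 5 tested B and plasma cell markers 3 were above 0 (median 0.01), and of 3 tested cholangiocyte markers 3 (median 0.22). The 7 stellate cell markers were all above 0 (median 0.50, summed 98.2 to 117.8 RPKM in old MANF livers, against 65.7 to 97.3 RPKM in old control livers). Of the 7 tested hepatocyte markers, 5 were above 0 with a median of 0.12, close to that of the proteasome genes. The part of these cells in the difference was not tested.

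Psmd11 (RPN6, a scaffold subunit that joins cap and core; chr11, 80428615 to 80473248) had the smallest p. It stood at 11.2, 10.6, 11.8 and 9.35 RPKM in old MANF livers, against 8.65, 9.11, 8.99 and 8.32 RPKM in old control livers. The groups did not overlap, and the log2 difference was 0.27 (SE 0.10, a fold of 1.21; limma adjusted p = 0.316). The ATPase gene Psmc6 had 43.4, 46.1, 42.1 and 40.6 RPKM in old MANF livers, against 38.7, 38.6, 37.9 and 40.1 RPKM in old control livers. These groups did not overlap either, with a log2 difference of 0.15 (SE 0.12, limma adjusted p = 0.816). Such separation in the higher direction was seen for 2 members of 35, and for 3.50% of all tested genes. In the lower direction it was seen for 0 members and for 1.84% of all tested genes.

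Of the catalytic genes, Psmb6 had 41.8, 43.1, 48.0 and 37.5 RPKM in old MANF livers, against 32.9, 31.9, 37.2 and 41.7 RPKM in old control livers. The groups overlap through old control replicate 4, and the log2 difference was 0.25 (SE 0.12, limma adjusted p = 0.535). Psmb5 differed by 0.19 and Psmb7 by 0.12 on the log2 scale (limma adjusted p = 0.817 and 0.756). The ATPase gene Psmc2 (log2 difference 0.22), the alpha subunit gene Psma4 (0.17) and the cap subunit gene Psmd12 (0.16) completed the 5 smallest p-values, with limma adjusted p between 0.509 and 0.602. Without old control replicate 4, the median difference was 0.22 and 35 of 35 genes (Psma8 included) were above 0, beside a median of 0.08 over all tested genes. After scaling each library to its median gene, 32 of 35 were above 0, with a median of 0.10. With that library, young control replicate 1 and young MANF replicate 3 left out together, the alpha subunit gene Psma1 passed limma's test as higher (log2 difference 0.32, adjusted p = 0.0369), as did 3.38% of all tested genes. Over the 34 members without Psma8, the 95% intervals reached from -0.27 (Psmd9) to 0.53 (Psmb5), folds of 0.83 and 1.44.

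**Figure D4:**
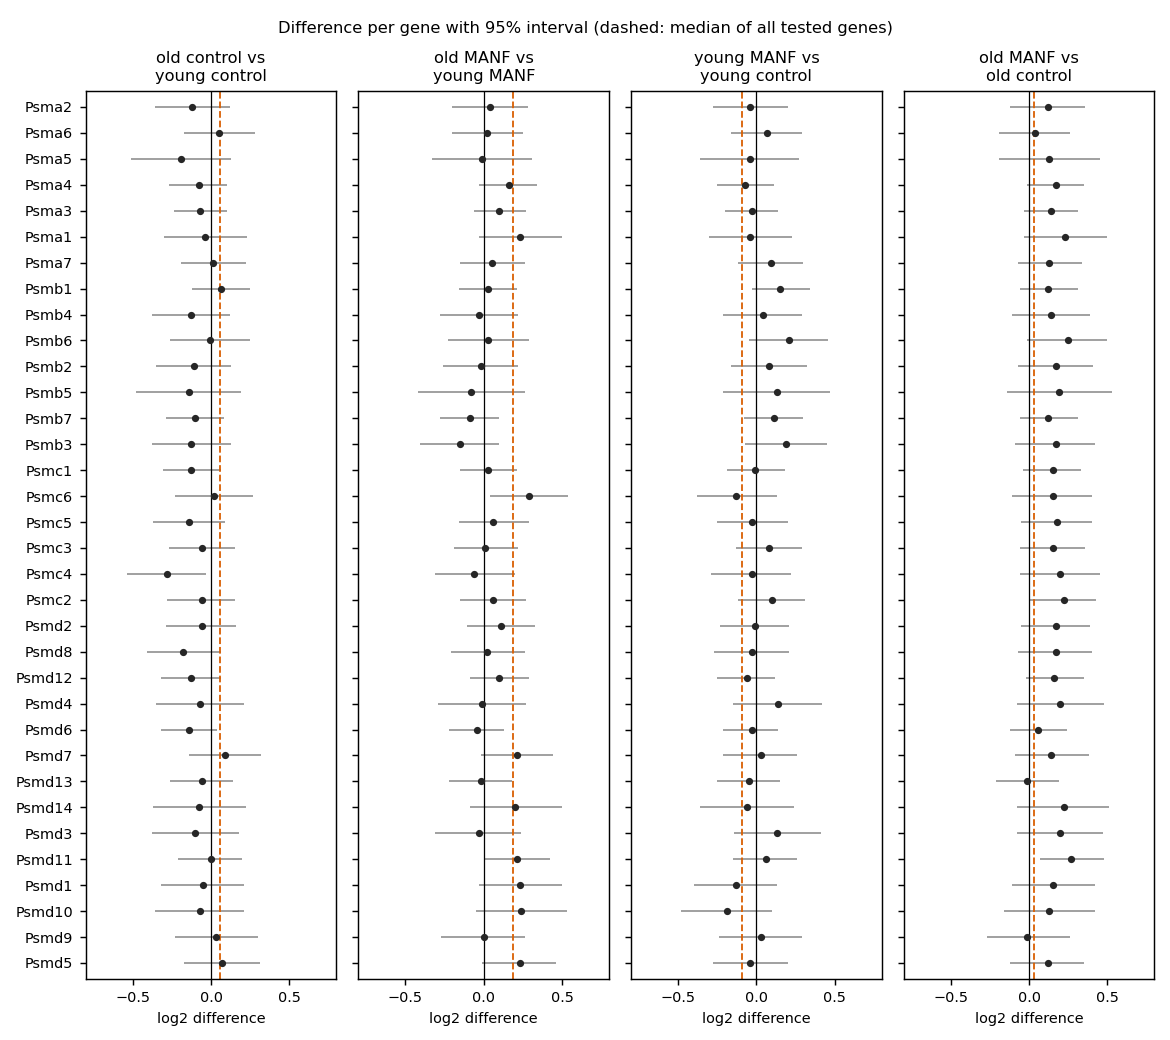
Log2 differences of 34 proteasome genes (all tested members except Psma8) with 95% intervals in the 4 pairwise comparisons, and the median of all tested genes as a dashed line. In old MANF against old control the points lie to the right of 0 in 32 of these genes and reach 0.27 (Psmd11); no gene passed the adjusted threshold in any panel.

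In young mice the members had no shared direction on the deposited scale, though 32 of 35 were above 0 (median 0.07) after scaling each library to its median gene. On the deposited scale, between young MANF and young control livers, 17 of 35 differences were above 0 and the median was -0.01 on the log2 scale, against -0.10 over all tested genes. None of the 35 passed, where 0.0187% of all tested genes did, and voom also called 0. At an unadjusted limma p under 0.05 there were 0 members and 1590 of all tested genes. The 7 tested beta subunit genes were all above 0, with a median of 0.13, and the alpha (median -0.03), ATPase (-0.02) and non-ATPase genes (-0.03) lay near 0. Young MANF replicate 3, in which values rose with GC content, was the highest young MANF liver for 7 of these 7 beta genes. Without it, 5 of the 7 were above 0, their median was 0.04, and Psmb4 and Psmb5 were each at -0.01. The beta subunit genes Psmb1, Psmb6 and Psmb3 had the smallest p, with log2 differences of 0.15, 0.21 and 0.19 (limma adjusted p = 0.395, 0.402 and 0.436).

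Psmb1, a beta subunit without an active site, had 84.3, 79.0, 97.2 and 76.3 RPKM in young MANF livers, against 77.1, 78.4, 71.3 and 74.8 RPKM in young control livers. Its groups overlap, and without young MANF replicate 3 the log2 difference was 0.08. Psmd10, the assembly chaperone gankyrin, had 5.19, 5.25, 4.68 and 5.16 RPKM in young MANF livers, against 7.10, 6.01, 4.96 and 5.45 RPKM in young control livers (log2 difference -0.19, limma adjusted p = 0.498). Psmb7 differed by 0.11 (adjusted p = 0.536) and Psmb5 by 0.13 (adjusted p = 0.692) on the log2 scale. None of the members separated the groups, where 2.29% of all tested genes did so upward and 6.59% downward. The direction of the whole set rested on single libraries. Without young control replicate 1, 30 of 35 differences were above 0 with a median of 0.09, without young MANF replicate 4 there were 23 with a median of 0.02, and without young control replicate 3 there were 13 with a median of -0.06. The 95% intervals, Psma8 apart, reached from -0.48 (Psmd10) to 0.47 (Psmb5), folds of 0.72 and 1.38.

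The difference of the MANF effect between ages was tested as an interaction (effect in old minus effect in young). It was above 0 for 31 of 35 members, with a median of 0.12 on the log2 scale, the same as the 0.12 over all tested genes. No member passed, and 0% of all tested genes did, and voom also called 0 members. At an unadjusted limma p under 0.05 there were 0 members and 894 of all tested genes. Psma4 had the smallest p among members, with an interaction of 0.24 (SE 0.12, limma adjusted p = 0.603). Psmd12 (0.23), Psmd10 (0.31), Psmd1 (0.28) and Psmc6 (0.27) followed, with limma adjusted p between 0.603 and 0.629. The catalytic genes Psmb5, Psmb6 and Psmb7 had interactions of 0.06, 0.04 and 0.01 (limma adjusted p between 0.927 and 0.97). The 95% intervals of the members without Psma8 reached from -0.41 to 0.72. After scaling each library to its median gene, 17 of 35 members were above 0 and the median was -0.01, so the sign of this set rested on the scaling. Leaving out single libraries gave medians between 0.05 (without young control replicate 1) and 0.20 (without young control replicate 3), with 0.08 without old MANF replicate 3 and 0.18 without either old MANF replicate 4 or old control replicate 4.

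Age was compared first within MANF mice. Proteasome genes differed little: the median log2 difference between old MANF and young MANF livers was 0.03, with 23 of 35 genes above 0, against 0.18 over all tested genes. None of the members passed, where 6.57% of all tested genes did, and voom also called 0. At an unadjusted limma p under 0.05 there were 2 members and 3570 of all tested genes. Psmc6 had the smallest p, with a log2 difference of 0.29 (SE 0.12, a fold of 1.22; limma adjusted p = 0.11). It stood at 43.4, 46.1, 42.1 and 40.6 RPKM in old MANF livers, against 41.4, 38.7, 26.1 and 36.4 RPKM in young MANF livers. The value of 26.1 belongs to young MANF replicate 3, in which values rose with GC content.

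Psmd11, with 11.2, 10.6, 11.8 and 9.35 RPKM in old MANF livers against 10.2, 9.07, 8.86 and 8.60 RPKM in young MANF livers, overlapped between the groups (log2 difference 0.21, limma adjusted p = 0.136). The assembly chaperone gene Psmd5 had 4.21, 3.76, 3.73 and 3.80 RPKM in old MANF livers, against 3.20, 3.33, 3.04 and 3.38 RPKM in young MANF livers. It did not overlap and differed by 0.23 on the log2 scale (limma adjusted p = 0.166). Psma1, Psmd5 and Psmd10 were the 3 members whose old MANF values all lay above the young MANF values, where 22.3% of all tested genes did so, and no member had them all below, where 1.36% of all tested genes did. The cap subunit gene Psmd7 differed by 0.21 on the log2 scale (limma adjusted p = 0.181). Psma8 came next by p, with a log2 difference of 0.40 (adjusted p = 0.189), but was tested only through its old MANF values. The catalytic genes Psmb5, Psmb6 and Psmb7 differed by -0.08, 0.03 and -0.09 (limma adjusted p = 0.746, 0.876 and 0.477).

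The median of all tested genes moved by more than 0.1 under scaling in this comparison, and the members moved with it. After scaling each library to its median gene, 9 of 35 members were above 0 in old MANF against young MANF livers, with a median of -0.15, and the median of all tested genes was 0.01. The members were thus below the typical gene on both scales, and the sign of their own median depended on the scale. The intervals of the members without Psma8, on the deposited scale, reached from -0.42 (Psmb5) to 0.54 (Psmc6), folds of 0.75 and 1.46. Leaving out young MANF replicate 3 gave a median of 0.08, with 32 of 35 genes above 0, and leaving out young MANF replicate 4 gave 0.00, with 17 above 0. The median was 0.07 without old MANF replicate 4 and 0.05 without old MANF replicate 1.

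In control mice, old livers had slightly lower means for most proteasome genes. The median log2 difference between old control and young control livers was -0.07, with 8 of 35 genes above 0, against 0.05 over all tested genes. None of the members passed, where 1.25% of all tested genes did, and voom also called 0. At an unadjusted limma p under 0.05 there was 1 member and 1589 of all tested genes. Psmc4, an ATPase of the cap (chr7, 28041707 to 28050101), had 21.1, 24.6, 23.2 and 25.8 RPKM in old control livers, against 35.0, 27.9, 23.9 and 29.6 RPKM in young control livers. The groups overlap through young control replicate 3, and the log2 difference was -0.28 (SE 0.12, a fold of 0.82; limma adjusted p = 0.277). The cap genes Psmd8 (-0.18), Psmd6 (-0.14), Psmc1 (-0.13) and Psmd12 (-0.13) followed, with limma adjusted p between 0.484 and 0.551.

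Among the catalytic genes, Psmb5 had 25.9, 28.3, 27.8 and 34.9 RPKM in old control livers, against 36.9, 38.5, 25.0 and 29.8 RPKM in young control livers. The spread within the groups exceeded the difference between them (log2 difference -0.14, SE 0.16, limma adjusted p = 0.742). Psmb6 and Psmb7 differed by -0.01 and -0.10 on the log2 scale (limma adjusted p = 0.983 and 0.647). The groups overlapped for each member, where 8.13% of all tested genes separated upward and 2.34% downward. The size of the tilt depended on single libraries. Without young control replicate 1, 19 of 35 differences were above 0 and the median was 0.00, and without old control replicate 1 there were 11 and the median was -0.04. It was larger without young control replicate 3 (4 of 35 above 0, median -0.14) and without old control replicate 4 (6 of 35, median -0.13). After scaling each library to its median gene, 5 of 35 were above 0 with a median of -0.12, against 0.01 over all tested genes. The intervals of the members without Psma8 reached from -0.54 (Psmc4) to 0.32 (Psmd7), folds of 0.69 and 1.25.

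Averages over both plasmids or both ages narrow the intervals. For age, the mean of the MANF and control comparisons had a median of 0.00 over the members, with 17 of 35 above 0, against 0.11 over all tested genes, and after scaling to the median gene 4 of 35 were above 0 with a median of -0.11. No member passed, where 15.6% of all tested genes did. The 1 member at an unadjusted limma p under 0.05, beside 3578 of all tested genes, was Psma8 (log2 difference 0.35, adjusted p = 0.116). Psma8 was tested only through its old MANF values. The next smallest limma p-values were those of Psmc4 (log2 difference -0.17, adjusted p = 0.175), Psmd7 (0.15, adjusted p = 0.177), Psmd5 (0.15, adjusted p = 0.201) and Psmc6 (0.15, adjusted p = 0.214). The catalytic genes Psmb5, Psmb6 and Psmb7 differed by -0.11, 0.01 and -0.10 (limma adjusted p = 0.51, 0.944 and 0.283). In this comparison the count of 0 changed under 4 alternatives. After scaling to the median gene, Psmc4 and Psmd6 passed as lower in old livers (log2 differences -0.28 and -0.20, limma adjusted p = 0.0389 and 0.0327), as did 4.82% of all tested genes. With limma's voom method on the recovered reads, 5 of 35 members passed as lower (Psmb3, Psmb7, Psmc1, Psmc4 and Psmd6, adjusted p between 0.0238 and 0.0446), as did 5.53% of all tested genes in that fit. Without young control replicate 1, Psmd5 passed as higher in old livers on the deposited scale (log2 difference 0.21, limma adjusted p = 0.0274), as did 14.0% of all tested genes.

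For the plasmid, the mean of the old and young comparisons had a median of 0.08 over the members, with 33 of 35 above 0, against -0.03 over all tested genes. No member passed, where 1.29% of all tested genes did, and voom also called 0. At an unadjusted limma p under 0.05 there were 4 members and 1504 of all tested genes. The scaling mattered less here: after scaling to the median gene, 33 of 35 were again above 0 with a median of 0.09. Single libraries mattered more, with medians between 0.04 without young control replicate 3 and 0.12 without young control replicate 1. Psmb6 had the smallest p, with a log2 difference of 0.23 (SE 0.09, a fold of 1.17; limma adjusted p = 0.245). Psmd11, Psmb1, Psmc2 and Psmb3 followed with log2 differences of 0.17, 0.14, 0.16 and 0.18 (limma adjusted p between 0.29 and 0.358), and Psmb5 and Psmb7 differed by 0.16 and 0.12 (limma adjusted p = 0.535 and 0.41). The intervals of the members without Psma8 reached from -0.23 to 0.41, folds of 0.85 and 1.33. These averages share their libraries with the pairwise comparisons and are no separate evidence.

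The immunoproteasome genes, which the choice of members leaves out, were less even than their constitutive counterparts, in large part through 1 liver. The SD within groups of Psmb8 was 0.550 on the log2 scale, against 0.239 for Psmb5, and without old control replicate 4 it was 0.259, against 0.232. For Psmb9 and Psmb6 it was 0.358 against 0.162 without that liver, and for Psmb10 and Psmb7 0.275 against 0.112. Psmb8, which replaces PSMB5, had 12.7, 14.8, 9.40 and 10.2 RPKM in old MANF livers, 8.49, 6.49, 9.18 and 32.6 RPKM in old control livers, 5.37, 4.65, 6.72 and 7.20 RPKM in young MANF livers, and 8.14, 10.5, 7.03 and 8.23 RPKM in young control livers. Old MANF values lay above all young MANF values, and old control replicate 4 stood alone. In old MANF against young MANF livers, Psmb8 differed by 0.92 on the log2 scale (limma adjusted p = 0.0896), Psmb9 by 0.77 (adjusted p = 0.222) and Psmb10 by 0.52 (adjusted p = 0.226), and none passed. Without old control replicate 4, which then no longer enters the shared estimate of the spread, Psmb8 and Psmb9 passed with the same differences (limma adjusted p = 0.00255 and 0.0316). With only the 2 groups compared in the fit, Psmb8 also passed (limma adjusted p = 0.0102). Calls among all tested genes in this comparison ranged from 213 to 1751 over the alternative settings. The share in each of these fits is not given here.

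The ratio of exchanged to constitutive subunit needs no scaling between libraries, but it does not cancel a deviation of only 1 of its genes. Psmb8 stood at 39.7, 45.3, 25.0 and 33.0% of Psmb5 in old MANF livers, 32.8, 23.0, 33.0 and 93.4% in old control livers, 15.2, 14.4, 14.1 and 25.6% in young MANF livers and 22.0, 27.3, 28.1 and 27.6% in young control livers. The old MANF livers thus nearly separated from the young MANF livers, with 25.0 and 25.6% as the only crossing. Psmb5 deviated from its group mean by 0.43 on the log2 scale in young MANF replicate 3 (ratio 14.1%) and by -0.32 in replicate 4 (ratio 25.6%). These are the libraries shown against GC content, and the part of base composition in the ratios was not tested. The mean log2 ratio differed by 1.06 between old MANF and young MANF livers (exact permutation p = 0.0571, adjusted p = 0.171 over 12 comparisons). The ratio was lower in young MANF than in young control livers by a log2 difference of -0.64 (exact permutation p = 0.0571, adjusted p = 0.171).

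Psmb9 relative to Psmb6 and Psmb10 relative to Psmb7 were likewise highest in old control replicate 4. Psmb10 was at 59.7, 87.5, 56.2 and 56.4% of Psmb7 in old MANF livers, against 34.3, 41.5, 38.9 and 52.5% in young MANF livers. These groups did not overlap (log2 difference 0.63, exact permutation p = 0.0286, adjusted p = 0.171), and 0.0286 is the smallest p that 4 against 4 animals can give. For Psmb9 against Psmb6 the log2 difference between old MANF and young MANF livers was 0.85 (exact permutation p = 0.0571, adjusted p = 0.171). In old control against young control livers, the 3 differences were 0.58, 0.52 and 0.25, with exact permutation p between 0.257 and 0.743. In old MANF against old control livers they were -0.16, -0.22 and 0.03, with exact permutation p of 0.857 or more. None of the 12 comparisons passed after adjustment, and all tests were two-sided. At 4 against 4 animals, 7 of the 12 would have had to reach the smallest p together to pass, so the adjusted values say little about any single ratio.

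**Figure D5:**
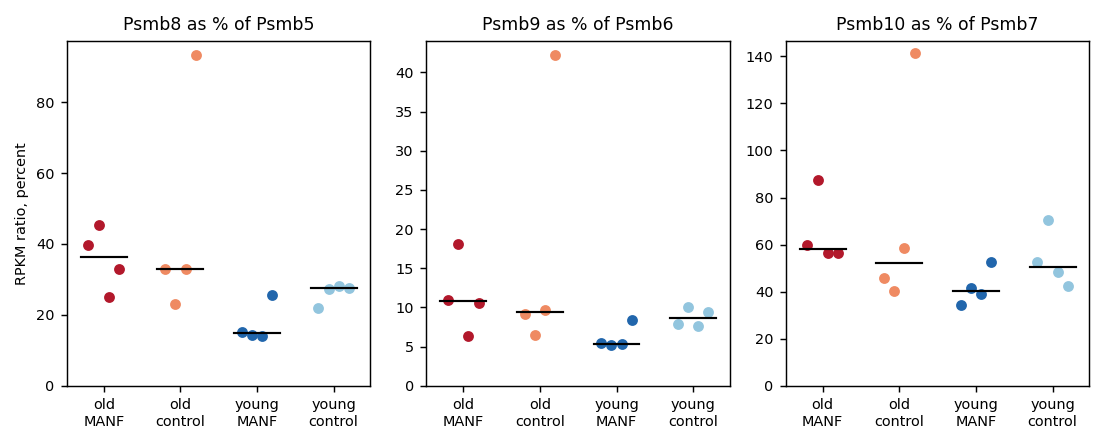
RPKM of an immunoproteasome gene as a percent of its constitutive counterpart, 1 point per liver and the group median as a bar. Old control replicate 4 stands highest in each panel (93.4, 42.2 and 141.3%), and 3 of 4 young MANF livers lie lowest for Psmb8 (14.1 to 15.2%).

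Summed levels of markers of other cells and of interferon genes also differed between the groups. The summed RPKM of 9 Kupffer cell markers was 138.2 to 272.8 in old MANF livers, 118.1 to 651.2 in old control livers, 35.7 to 127.7 in young MANF livers and 58.3 to 160.3 in young control livers. The 8 T and NK cell markers in the table summed to 6.70 to 10.0 RPKM in old MANF livers, 5.82 to 44.4 in old control livers, 0.858 to 1.49 in young MANF livers and 1.11 to 8.80 in young control livers. The 12 interferon response genes summed to 274.6 to 486.4 RPKM in old MANF livers, 195.9 to 462.8 in old control livers, 144.1 to 180.1 in young MANF livers and 127.8 to 190.4 in young control livers. In old MANF against young MANF livers, 8 of these 12 interferon genes and 4 of 6 tested T and NK cell markers passed as higher, as did 625 of all 10677 tested genes. The median log2 differences of these lists were 1.44 and 0.92. Of 9 Kupffer cell markers 0 passed, though 9 were above 0 (median 1.31) and 7 had an unadjusted limma p under 0.05. Stellate cell markers passed in 3 of 7 (median 0.98), B and plasma cell markers in 1 of 5 (0.68) and sinusoidal endothelium markers in 0 of 8 (0.35). Old MANF replicate 2, with the highest ratios of its group (45.3% for Psmb8 and 87.5% for Psmb10), had the lowest Kupffer cell and T and NK cell sums of the group, 138.2 and 6.70 RPKM, and the highest interferon sum, 486.4 RPKM. Young MANF replicate 3 had the highest of both cell sums in its group, 127.7 and 1.49 RPKM, with the lowest Psmb8 ratio, 14.1%. Its Psmb8 itself, 6.72 RPKM, lay within the group's range of 4.65 to 7.20 RPKM, while its Psmb5, 47.5 RPKM, was the highest of the group. The Psmb9 and Psmb10 ratios of that liver, 5.36 and 38.9%, were not the lowest of the group. The part of these cells and of interferon in the immunoproteasome ratios was not tested. Old control replicate 4, the highest old control liver for each of these 3 sums, was also above its group mean for 33 of the 35 constitutive members. Young control replicate 1, above its group mean for 35 of 35, had the lowest Kupffer cell sum of its group, 58.3 RPKM. Its T and NK cell and interferon sums, 1.39 and 137.2 RPKM, were not the highest of the group. Both livers had the lowest hepatocyte marker sums of their groups, 28155.1 RPKM in the old and 27407.1 RPKM in the young liver. The part of any of these cells in the subunit levels was not tested.

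Partners of the proteasome were taken from lists of the pathway, and none of their genes passed in any of the 4 pairwise comparisons with all libraries. The activator PA28, a ring that opens the core, is made from Psme1 and Psme2. Psme1 had 32.0, 34.9, 28.5 and 26.1 RPKM in old MANF livers, against 23.7, 21.8, 32.4 and 21.8 RPKM in young MANF livers (log2 difference 0.29, limma adjusted p = 0.358). Without old control replicate 4 and young MANF replicate 3 together, Psme1 passed in this comparison (log2 difference 0.42, limma adjusted p = 0.0267). It also passed with young control replicate 1 left out as well (limma adjusted p = 0.03). Over the alternative settings, 213 to 1751 of all tested genes passed in this comparison. Psme2 differed by 0.30 in the same comparison (adjusted p = 0.255) and by 0.24 between old control and young control livers (adjusted p = 0.611). The inhibitor gene Psmf1 (PI31) stayed between 2.74 and 3.75 RPKM over all libraries. Pomp, the chaperone that completes the core, had 12.4, 13.3, 13.3 and 12.0 RPKM in old MANF livers, against 11.9, 11.3, 11.1 and 16.1 RPKM in old control livers (log2 difference 0.03).

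Nfe2l1, the transcription factor gene, had 14.7, 12.6, 14.5 and 11.8 RPKM in old MANF livers, 17.4, 14.6, 16.7 and 15.0 RPKM in old control livers, 13.3, 12.4, 9.57 and 12.7 RPKM in young MANF livers and 14.9, 14.4, 11.0 and 11.9 RPKM in young control livers. The log2 difference was -0.24 in old MANF against old control livers (limma adjusted p = 0.546) and 0.29 in old control against young control livers (limma adjusted p = 0.268), neither of which passed. Of the 5 genes of this list, which adds the protease Ddi2, the deglycosylase Ngly1, the segregase Vcp and Akirin2, 4 were above 0 in old control against young control livers (median 0.08) and 5 in old MANF against young MANF livers (median 0.19). These medians are near those over all tested genes, 0.05 with 6636 of 10677 above 0 and 0.18 with 8434 of 10677 above 0. Rps27a, which codes for ubiquitin fused to a ribosomal protein, had 67.5 to 97.3 RPKM, and Ubb, which codes for repeated ubiquitin units, was at 0.467 to 1.13 RPKM. How reads with several matches were handled is not stated.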

How the data were processed

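RNA of 16 livers, extracted with Trizol, was sequenced from TruSeq Stranded mRNA LT libraries, per the labels' protocols. The authors deposited RPKM values for 24010 entries, 24 of them with a date in place of a symbol. Alignment and counting tools were STAR 2.4.2a and HTSeq, with the mm10 assembly, per the submitters' processing notes, which give no setting for strand or for reads with several matches. Reads were recovered from the steps of the RPKM values: 100% of values of the 10677 tested genes came out whole, with a largest distance of 0.00136 reads. The reads in tested genes numbered 11.80 to 16.53 M (megareads) per library.

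The tests took genes that reached 0.5 RPKM in 4 or more of the 16 libraries, as log2(RPKM + 0.5), with 1 mean per group in limma 3.58.1 (R 4.3.3) with an intensity trend. Tests were two-sided, adjusted by Benjamini-Hochberg over all 10677 genes and called at an adjusted p below 0.05. Log2 differences understate the change of genes near 0.5 RPKM. Ratios were compared with exact permutation tests (scipy 1.17.1). The fit was tested on simulated data. For each comparison the members named are those called and the 5 with the smallest p, and the 3 catalytic genes and the members with the highest and lowest level are named in any case. Members named for groups that did not overlap, for their sign, spread, GC content, interval or a call under an alternative were chosen after their values were seen. Members and lists were chosen with earlier results of these data known. Replicates are separate animals, per the series' design text. Same-numbered libraries did not deviate together, so the numbers were not used as pairs. Some genes of the partner lists are not reported here.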

Additional observations from a re-analysis of the deposited data

Results flagged for a closer look

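A liver was singled out where its distance to the nearest liver of its group took more of the range of the group than Dixon's 95% critical value for 4 values allows. This was so in 17 of 172 groups of values, and 8 of the 17 were in old control replicate 4. For a single group, chance gives about 1 in 20. The 172 groups are members, immunoproteasome and partner genes read in the same 16 livers, and are not independent. The count of 17 can therefore not be judged against that rate.

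In that liver the constitutive genes Psmc3 (30.9 RPKM, against 24.3 to 24.8 in the other old control livers), Psmd8 (25.4 against 21.2 to 21.7) and Psmd10 (7.50 against 4.90 to 5.01) stood high. The immunoproteasome genes Psmb8 (32.6 against 6.49 to 9.18 RPKM) and Psmb9 (17.6 against 2.06 to 3.60) stood further apart in fold, as did the PA28 genes Psme1 (51.1 against 21.7 to 23.4 RPKM) and Psme2 (54.3 against 25.6 to 29.4). The core chaperone gene Pomp was also high there (16.1 against 11.1 to 11.9 RPKM). The same liver had the highest sums of Kupffer cell, T and NK cell and interferon genes of its group, and their part in these values was not tested.

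Young control replicate 1 stood apart for the ATPase genes Psmc2 (14.0 against 10.1 to 10.7 RPKM) and Psmc6 (44.6 against 35.5 to 36.9). Young control replicate 3 was low for Pomp (10.9 against 13.5 to 14.0 RPKM). In old MANF livers, replicate 2 was high for Psma1 (26.4 against 23.7 to 23.9 RPKM), replicate 1 was high for Psmd5 (4.21 against 3.73 to 3.80) and replicate 4 was low for Psma2 (56.8 against 69.6 to 72.2). In young MANF livers, replicate 3 was low for Psmd10 (4.68 against 5.16 to 5.25 RPKM) and replicate 4 for Psmd6 (19.1 against 21.3 to 21.5). Old control replicate 1 was low for Psmd9 (4.00 against 4.53 to 4.63 RPKM).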

How the results depend on the processing

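The count of members called was 0 in the 7 comparisons and stayed 0 in 180 of 186 recomputed counts. For the age difference averaged over plasmids it was 2 after median scaling and 5 with voom on recovered reads, all of them lower in old livers. It was 2 without young control replicate 1, old control replicate 4 and young MANF replicate 3 together. Those 2, Psmd5 and Psmd7, were higher in old livers (log2 differences 0.20 and 0.22), as were 16.9% of all tested genes. That triple was chosen after seeing the data. It gave 1 call as higher (Psma1) in old MANF against old control livers, beside 3.38% of all tested genes. In the averaged plasmid comparison it gave 1 (again Psma1, higher), beside 0.969% of all tested genes. Leaving out single libraries gave 0 to 1 call in the averaged age comparison and 0 to 0 in the others. The cause of these changes was not tested. With the replicate number as a block, 0 members were called in each comparison. The share of all tested genes called in that fit is not given here. For the voom fits that called 0 members, the share printed beside them is that of the main fit. Calls among all tested genes are given below as ranges over the alternatives. The numbers did not pair the livers: r was over 0.1 in 5 of 24 same-number pairs (-0.32 to 0.21), and 2 of 16 libraries correlated best with their own number.

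The calls among all tested genes ranged from 37 to 230 (old control against young control), 213 to 1751 (old MANF against young MANF), 2 to 5 (young MANF against young control), 2 to 448 (old MANF against old control), 968 to 1973 (age, averaged), 59 to 209 (plasmid, averaged) and 0 to 2 (interaction). Without single libraries, the log2 ratio differences that changed sign ranged in old MANF against old control livers from -0.42 to 0.26 (Psmb8/Psmb5), -0.53 to 0.37 (Psmb9/Psmb6) and -0.18 to 0.42 (Psmb10/Psmb7), and in old control against young control livers from -0.06 to 0.84 (Psmb9/Psmb6) and -0.14 to 0.46 (Psmb10/Psmb7). With a liver left out the exact test of a ratio cannot go below 0.0571, nor with the replicate block below 0.125, so these settings could not have made a ratio pass. With 4 livers a group, the 95% intervals of members without Psma8 reached from -0.54 to 0.54 on the log2 scale in the pairwise comparisons, and the median SE of a member was 0.11.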

Other observations

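Genes around the proteasome repeat the library patterns of the subunits in single cases. The deubiquitinase gene Usp14, which trims ubiquitin at the cap, had 5.85, 6.09, 5.75 and 4.98 RPKM in old MANF livers, 5.54, 5.74, 5.61 and 5.37 RPKM in old control livers, 6.15, 5.22, 3.49 and 5.29 RPKM in young MANF livers and 7.38, 4.86, 5.60 and 5.53 RPKM in young control livers. The lowest of these, 3.49 RPKM, belongs to young MANF replicate 3 and the highest, 7.38 RPKM, to young control replicate 1. The ubiquitin receptor gene Adrm1 had 14.0 RPKM in young MANF replicate 3, while the remaining livers of that group had 9.83 to 10.8 RPKM. Psme4, the gene of the activator PA200, was below 0 in young MANF against young control livers, with a log2 difference of -0.31 (limma adjusted p = 0.321). These genes were chosen after their values were seen.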
